A study of Mus musculus with 16 samples.

Results

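The genes described here copy DNA and divide cells. The list held 35 genes of replication licensing, the sliding clamp, nucleotide supply, the cyclins, mitosis and the cell cycle checkpoints, of which 32 had a probe set mapped to their symbol alone, out of 22180 genes measured. All but Pcna and Cip2a were listed by function, though with earlier results of these data known. Pcna and Cip2a were added because their levels spread widely between the arrays of mice with status epilepticus (SE), a prolonged seizure, so their values in SE arrays are given as a description without a test. Rfc4 and Ccne2 had only a probe set shared with another gene, Eif4a2 and Ints8 respectively, and Ccnb1 was not analysed here. No gene was filtered on its level, and the level of a gene was taken from its probe set with the highest mean over the 16 arrays, which was a choice only for Rrm2.

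Affymetrix arrays were run on hippocampal RNA from 16 mice of the C57BL/6 strain, which were 8 to 10 weeks old and formed 4 groups of 4. Control mice had the genotype wild type/ + cre Glia, and Astro-D2KO mice had the genotype + Flox D2/ + cre Glia, which targets Dio2 in glia, the gene of the type 2 deiodinase that makes active thyroid hormone, T3. All groups thus carried the glial cre, and the sources used here do not give its promoter. Lithium chloride (10 mEq/kg) went to every mouse 18 h ahead of the second injection, which was saline or the muscarinic agonist pilocarpine (65 mg/kg), the trigger of SE, so drug and seizure effects cannot be told apart. The sources used here do not give the time from pilocarpine to tissue collection. Each array is a mouse per its title, values are on the log2 scale, and the adjusted p-values below are from limma across the 22180 genes, two-sided, with Benjamini-Hochberg adjustment and a threshold of 0.05.

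In a dividing cell, the origin recognition complex, Cdc6 and Cdt1 load a ring of the Mcm2 to Mcm7 proteins onto DNA, the GINS complex helps turn that ring into the moving helicase, and PCNA, loaded by the RFC complex, holds the polymerases on the strand. E2F transcription factors switch on most of these genes before S phase, and the genes of mitosis follow later. Nearly all neurons of the adult hippocampus have left the cell cycle, and the dividing cells are mainly neural progenitors of the dentate gyrus, oligodendrocyte precursors and, after injury, microglia. PCNA, ribonucleotide reductase and Chk1 also act in DNA repair, outside division. In whole hippocampus, fewer cells of a type and less RNA per cell cannot be told apart.

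Correlations between arrays over all probe sets ran from 0.969 to 0.990 and no pair was identical. Dio2 stood at 6.78 ± 0.23 in Astro-D2KO and 8.14 ± 0.19 in control mice under saline (SD, n = 4 each, two-sided exact permutation p = 0.0286, the smallest possible, unadjusted). After SE the difference was -1.41 (exact permutation p = 0.0571), and a second Dio2 probe set differed by -0.09 under saline and -0.12 after SE (exact permutation p = 0.686 and 0.657). After SE, Dio2 was at 8.91 in the array labelled Astro-D2KO SE replicate 1, while the rest of that group ran from 7.03 to 7.17. It was at 7.99 in the array labelled control SE replicate 4, while the rest of its group ran from 9.11 to 9.51. Results on the members that rest on these arrays are given with and without them. Of marker lists for cells of the region, 5 of 10 dentate granule cell markers fell after SE in control mice and 4 of 10 in Astro-D2KO mice. Of all genes, 13.7% fell in control and 12.6% in Astro-D2KO mice. Choroid plexus markers, summed as a mean over 8 genes, ran from 5.93 to 8.05 between arrays with overlap of all groups.

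After SE most of the replication and division genes did not pass the test in either genotype, while Rrm1 and Chek1 rose and Mcm6 and Mcm7 fell in both. In control mice 2 of the 30 members tested rose and 2 fell, which is 13.3%, against 22.1% of all genes. In Astro-D2KO mice 3 rose and 2 fell, which is 16.7%, against 20.1% of all genes. The shares are within a few genes of the background and are not a result about the members. At an unadjusted p under 0.05, limma had 9 of the 30 in each genotype, beside 33.0% of all genes in control and 30.8% in Astro-D2KO mice. The median difference of the members was 0.02 in either genotype, beside -0.02 and -0.01 over all genes.

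**Figure D1:**
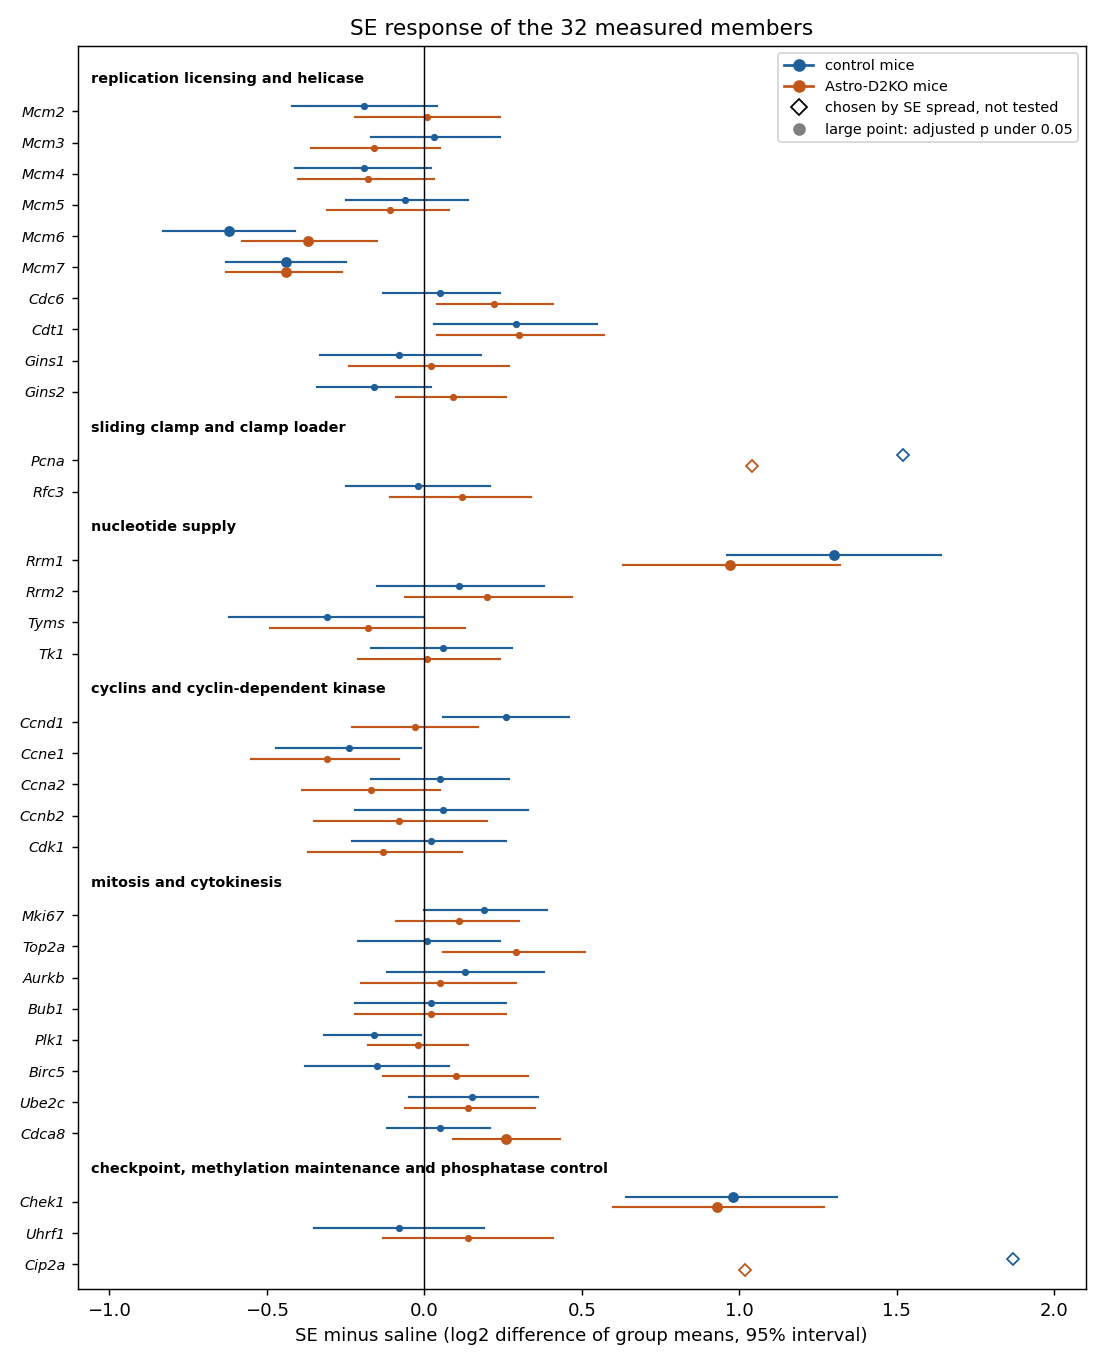
SE minus saline difference on the log2 scale for each of the 32 measured members, in control mice (blue) and Astro-D2KO mice (orange), with 95% intervals from the limma fit and members ordered by role. Open diamonds mark Pcna and Cip2a, which were chosen by their spread and not tested; Rrm1 and Chek1 lie near 1 and Mcm6 and Mcm7 lie between -0.62 and -0.37.

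Rrm1 encodes the large subunit of ribonucleotide reductase, which makes deoxyribonucleotides for replication and repair. Under saline Rrm1 stood at 6.88, 6.97, 6.89 and 6.78 in control replicates 1 to 4 and at 6.78, 6.59, 6.86 and 6.85 in Astro-D2KO replicates 1 to 4. After SE it stood at 8.66, 8.12, 8.31 and 7.63 in control mice and at 7.96, 7.67, 7.42 and 7.93 in Astro-D2KO mice. Every SE array was above every saline array in both genotypes. Rrm1 rose by 1.30 ± 0.163 (SE of the fit, 2.46-fold, adjusted p = 2.27e-05) in control mice and by 0.97 ± 0.163 (1.97-fold, adjusted p = 0.000413) in Astro-D2KO mice. The lowest control SE array was replicate 4, and without it and Astro-D2KO SE replicate 1 the rises were 1.48 and 0.90. Rrm2, the small subunit that is made in S phase, was at 5.05 under saline and 5.17 after SE in control mice and did not pass (0.11, 95% interval -0.15 to 0.38), nor did it in Astro-D2KO mice (0.20, -0.06 to 0.47).

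Chek1 encodes the checkpoint kinase Chk1, which holds the cell cycle when replication forks stall. Under saline Chek1 stood at 5.66, 5.32, 5.09 and 5.48 in control mice and at 5.60, 5.13, 4.96 and 5.60 in Astro-D2KO mice. After SE it stood at 6.39, 6.06, 6.48 and 6.54 in control mice and at 6.20, 6.34, 6.48 and 6.00 in Astro-D2KO mice. The arrays of SE and saline mice did not overlap. Chek1 rose by 0.98 ± 0.159 (adjusted p = 0.00028) in control mice and by 0.93 ± 0.159 (adjusted p = 0.000478) in Astro-D2KO mice, close to 2-fold in each. Control SE replicate 4, the lowest array for Rrm1, was the highest for Chek1.

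Mcm6 and Mcm7 encode subunits of the replicative helicase. Mcm6 stood at 6.55, 6.53, 6.56 and 6.33 in control saline arrays and at 5.91, 5.80, 5.69 and 6.09 in control SE arrays. In Astro-D2KO mice Mcm6 stood at 6.39, 6.42, 6.65 and 6.51 under saline and at 6.04, 6.11, 6.35 and 6.00 after SE. Neither genotype had overlapping arrays, though Astro-D2KO SE replicate 3 came close to the lowest saline array. Mcm6 fell by 0.62 in control mice (SE of the fit 0.101, adjusted p = 0.000275) and by 0.37 in Astro-D2KO mice (adjusted p = 0.0148). The fall in Astro-D2KO mice did not pass without Astro-D2KO saline replicate 3 (-0.31, adjusted p = 0.0548). Without control SE replicate 4 and Astro-D2KO SE replicate 1 the differences of Mcm6 were -0.69 in control and -0.34 in Astro-D2KO mice. Mcm7 stood at 5.99, 5.98, 5.71 and 5.79 in control saline arrays and at 5.37, 5.35, 5.44 and 5.55 in control SE arrays. In Astro-D2KO mice Mcm7 stood at 5.94, 5.89, 5.98 and 5.83 under saline and at 5.51, 5.53, 5.58 and 5.25 after SE. Every SE array was below every saline array of its genotype. Mcm7 fell by 0.44 in both genotypes (SE of the fit 0.0885, adjusted p = 0.00157 in control and 0.00168 in Astro-D2KO mice).

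The promoters of 4 of the members that differed most are shown, since E2F and cyclic AMP response elements are the usual entry points for cell cycle and neuronal activity signals. Of the 35 listed genes, 28 matched an entry of the RefSeq promoter table (GRCm38.p6). For each gene the 250 bases before its most upstream start in that table were searched on both strands. For the E2F site the words searched were TTCCCGC, the variant TTCGCGC, the variant TTGCCGC and the variant TTGGCGC. The other words were CCAAT for the CCAAT box, TTTGAA for the cell cycle homology region, TGACG for the core of the cyclic AMP response element and TGANTCA for the AP-1 site. Capitals mark every match on either strand, and each run ends at the base before the start. The run of Pcna is 157 bases, because the neighbouring gene Cds2 covers the rest, and the windows of Cip2a, Mcm7 and Cdca8 are not shown because they overlap annotated genes.
Pcna, chr2:132253181-132253337, minus strand: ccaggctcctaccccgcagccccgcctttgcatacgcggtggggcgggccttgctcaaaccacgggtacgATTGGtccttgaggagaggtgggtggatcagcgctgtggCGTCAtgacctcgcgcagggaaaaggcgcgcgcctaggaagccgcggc
Rrm1, chr7:102441445-102441694, plus strand: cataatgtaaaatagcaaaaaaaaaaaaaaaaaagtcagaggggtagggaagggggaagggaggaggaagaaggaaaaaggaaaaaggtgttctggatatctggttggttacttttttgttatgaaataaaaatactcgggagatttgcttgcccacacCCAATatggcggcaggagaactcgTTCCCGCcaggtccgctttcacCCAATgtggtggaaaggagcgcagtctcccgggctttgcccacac
Chek1, chr9:36726659-36726908, minus strand: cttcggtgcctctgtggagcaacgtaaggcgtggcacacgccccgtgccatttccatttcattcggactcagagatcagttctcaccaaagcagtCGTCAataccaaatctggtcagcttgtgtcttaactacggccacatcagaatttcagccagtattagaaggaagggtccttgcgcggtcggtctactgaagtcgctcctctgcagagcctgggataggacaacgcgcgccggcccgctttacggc
Mcm6, chr1:128359706-128359955, minus strand: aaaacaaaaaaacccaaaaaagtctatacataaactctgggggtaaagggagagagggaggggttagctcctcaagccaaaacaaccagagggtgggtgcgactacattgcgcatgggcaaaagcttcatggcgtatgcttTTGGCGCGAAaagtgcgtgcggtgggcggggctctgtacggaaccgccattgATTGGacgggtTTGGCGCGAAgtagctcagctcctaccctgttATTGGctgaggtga

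Mcm6 held the E2F word at 2 places, each read on both strands in overlapping matches, and CCAAT boxes 57 and 14 bases before the start, so that E2F words and boxes alternate. Rrm1 held 1 E2F word between a pair of CCAAT boxes. Pcna held a CCAAT box and a cyclic AMP element core in the run shown, and a further core 197 bases before the start within Cds2. Chek1 held a cyclic AMP element core, 155 bases before the start, and no other word. Among the windows not shown, that of Cip2a held 2 E2F words and that of Mcm7 held 1. Both of these windows overlap the annotated span of their own gene, so they do not lie wholly upstream of it. Over the 28 member promoters, 42.9% held an E2F word, beside 8.03% of 27025 promoters of all genes in the table, and 71.4% held a CCAAT box, beside 34.5%. The cyclic AMP element core was in 25% of member promoters and 17.8% of all, the word TTTGAA in 21.4% and 16.3%, and the AP-1 word in 0 of 28 and in 6.85% of all. E2F words were found in the windows of Rrm1, which rose, and of Mcm6 and Mcm7, which fell, and a match does not show that a factor binds.

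**Figure D2:**
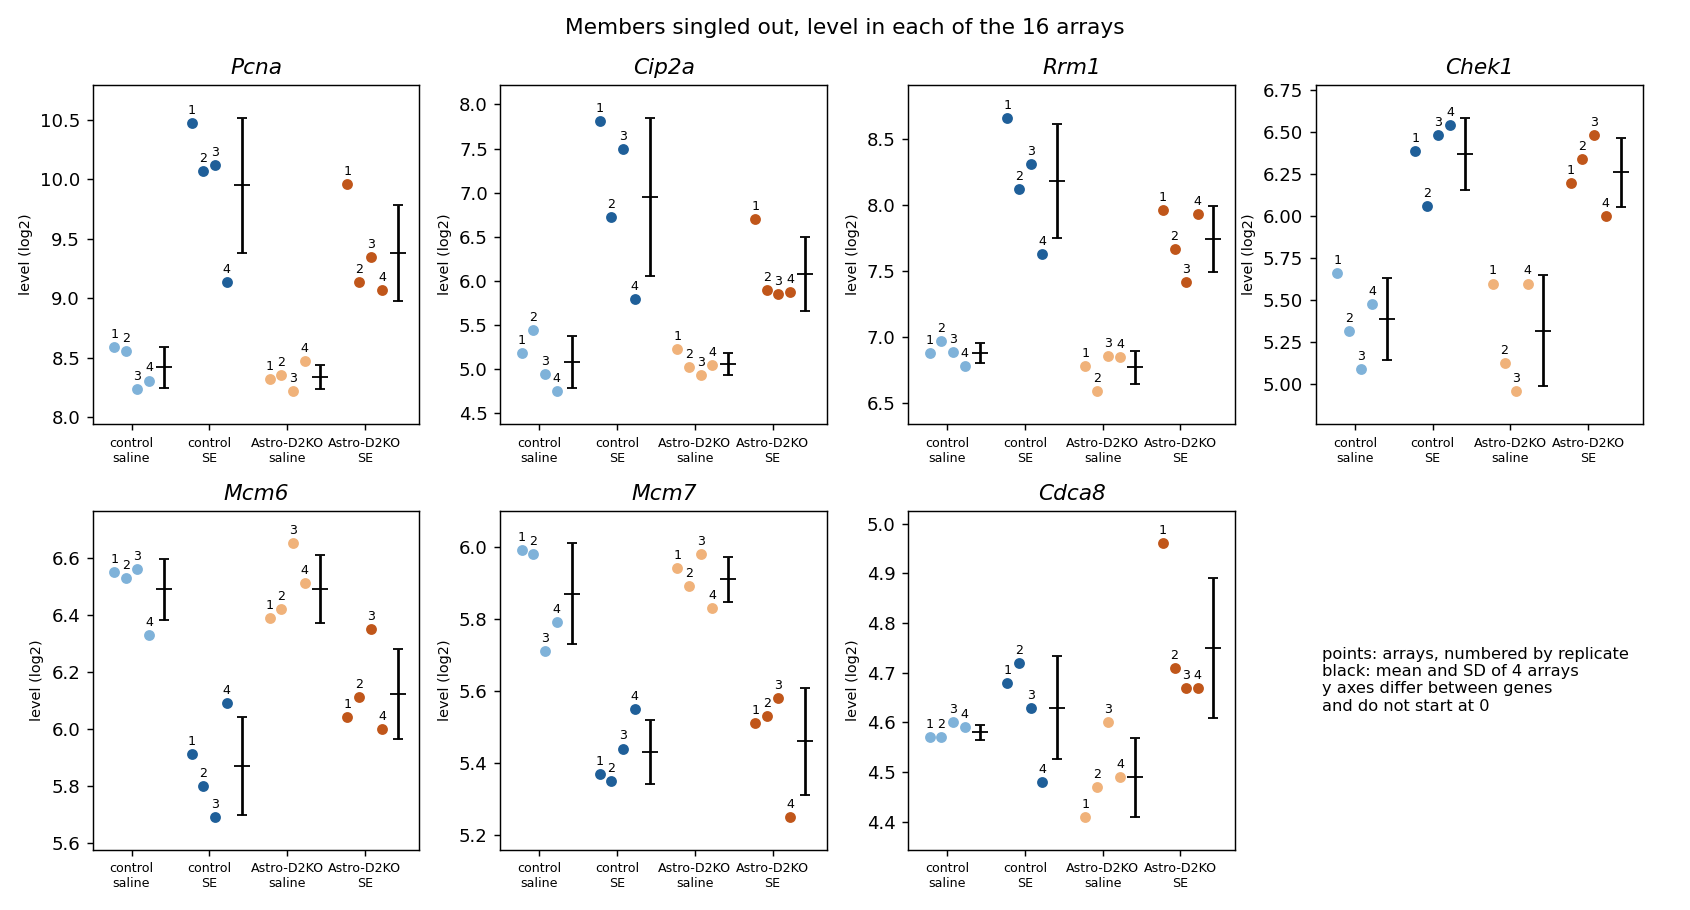
Level on the log2 scale of the 7 members described one by one, in each of the 16 arrays, with the replicate number beside each point and the mean and SD of each group in black. The SE arrays of Rrm1 and Chek1 lie above the saline arrays and those of Mcm6 and Mcm7 below them, and Pcna and Cip2a spread most between SE arrays, from 9.07 to 10.47 and from 5.79 to 7.81.

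Pcna encodes the sliding clamp of the polymerases, which also serves DNA repair, and its values after SE are part of why it was listed. Under saline Pcna stood at 8.59, 8.56, 8.24 and 8.31 in control mice and at 8.32, 8.36, 8.22 and 8.47 in Astro-D2KO mice. After SE it stood at 10.47, 10.07, 10.12 and 9.14 in control mice and at 9.96, 9.14, 9.35 and 9.07 in Astro-D2KO mice. The SE arrays were all above the saline arrays, with mean differences of 1.52 in control and 1.04 in Astro-D2KO mice, and of 1.79 and 0.84 without control SE replicate 4 and Astro-D2KO SE replicate 1. Control SE replicate 4 lay with 3 of the Astro-D2KO SE arrays, and Astro-D2KO SE replicate 1 lay nearer the other control SE arrays.

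Cip2a encodes an inhibitor of the phosphatase PP2A that protects the Myc protein and also acts in mitosis. Under saline Cip2a stood at 5.18, 5.44, 4.95 and 4.75 in control mice and at 5.23, 5.02, 4.93 and 5.05 in Astro-D2KO mice. After SE it stood at 7.81, 6.72, 7.49 and 5.79 in control mice and at 6.70, 5.90, 5.85 and 5.87 in Astro-D2KO mice. All SE arrays were above the saline arrays, with mean differences of 1.87 in control and 1.02 in Astro-D2KO mice, and of 2.26 and 0.81 without the same 2 arrays. The SD over the control SE arrays was 0.899 for Cip2a and 0.567 for Pcna, the values for which they were chosen. Rrm1 came next of the 32 members at 0.431, and Top2a after it at 0.292.

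Some of these genes shared an order of the SE arrays in control mice. Pcna, Cip2a, Rrm1 and Dio2 all had replicate 1 highest, then 3, then 2, and replicate 4 lowest. Npas4, a transcription factor of active neurons that was on none of the lists, had the same order, at 11.57, 11.39, 11.13 and 8.96. Pcna and Cip2a were chosen for their spread between SE arrays, and Dio2 too was on none of the lists. The share of all genes with this order was not computed, so the order is a description without a test. In Astro-D2KO mice Pcna, Cip2a, Rrm1 and Dio2 had replicate 1 highest, though for Rrm1 only just (7.96, and 7.93 in replicate 4). The order of the other Astro-D2KO replicates differed from gene to gene. Npas4 ran the other way there, with replicate 1 lowest at 10.31 and replicate 4 highest at 11.36. Chek1, Mcm6 and Mcm7 had control SE replicate 4 as their highest control SE array and so did not follow this order. Whether the 2 arrays differ from their groups in genotype, in seizure or in dissection was not tested.

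**Figure D3:**
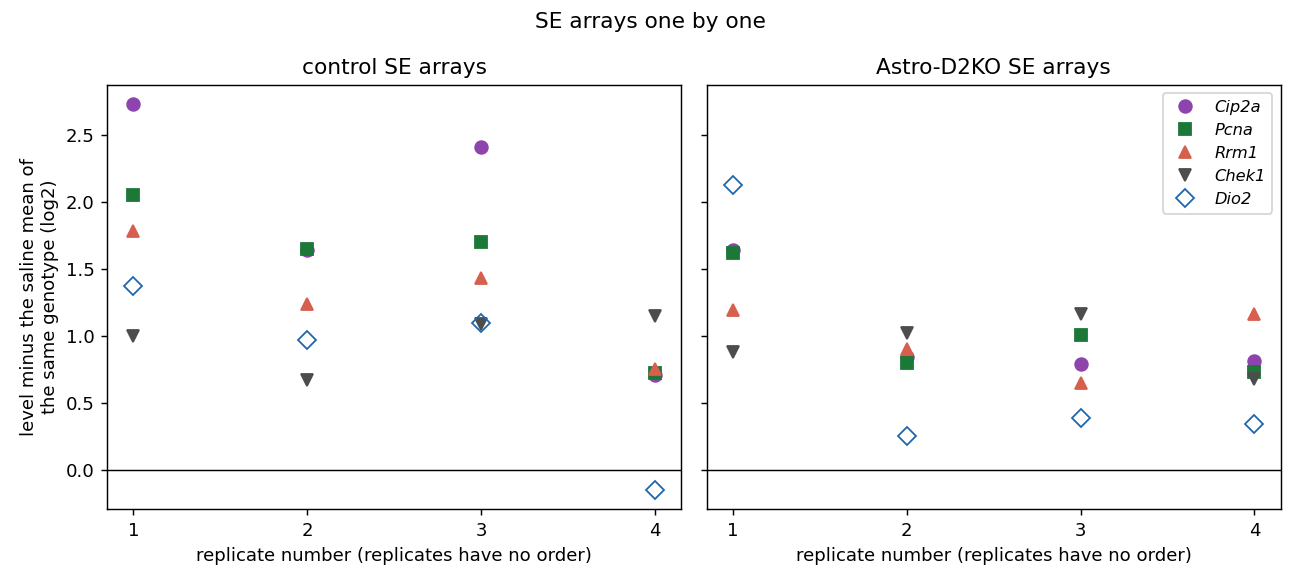
Level of Cip2a, Pcna, Rrm1, Chek1 and Dio2 in each SE array minus the saline mean of the same genotype, on the log2 scale, with control SE arrays on the left and Astro-D2KO SE arrays on the right. Control SE replicate 4 is lowest and Astro-D2KO SE replicate 1 highest for Cip2a, Pcna, Rrm1 and Dio2, and Chek1 does not share that pattern. For Rrm1, Astro-D2KO SE replicate 1 is close to replicate 4 (levels of 7.96 and 7.93).

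Of the 10 licensing and helicase genes, 0 rose and 2 fell in each genotype, with a median difference of -0.12 in control and -0.05 in Astro-D2KO mice. Of all genes, 8.42% rose and 13.7% fell in control mice, and 7.49% rose and 12.6% fell in Astro-D2KO mice. The count is near those shares and is not a result about the licensing genes. The other subunits of the Mcm ring, Mcm2, Mcm3, Mcm4 and Mcm5, had differences from -0.19 to 0.03 and did not pass. Cdt1, the licensing factor that geminin holds in check, stood 0.29 higher after SE in control mice (95% interval 0.03 to 0.55) and 0.30 higher in Astro-D2KO mice (0.04 to 0.57), and did not pass after adjustment. Cdc6, its loading partner, had non-overlapping arrays in Astro-D2KO mice, with a difference of 0.22 that did not pass (adjusted p = 0.079). The GINS subunit genes Gins1 and Gins2 had differences from -0.16 to 0.09. The clamp loader gene Rfc3 had differences of -0.02 and 0.12. Of the nucleotide supply genes other than Rrm1 and Rrm2, thymidylate synthase (Tyms) had -0.31 and -0.18 and thymidine kinase (Tk1) 0.06 and 0.01, in control and Astro-D2KO mice.

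None of the 5 measured genes of cyclins and their kinase Cdk1 passed in either genotype, beside 22.1% of all genes in control and 20.1% in Astro-D2KO mice. Ccnd1, the cyclin D1 gene that opens the G1 phase, stood at 7.47 ± 0.161 under saline and 7.73 ± 0.151 after SE in control mice (SD, n = 4), a difference of 0.26 (adjusted p = 0.0603), and differed by -0.03 in Astro-D2KO mice. Ccne1, the cyclin E1 gene of the G1 to S step, had differences of -0.24 and -0.31. In control mice its arrays did not overlap, yet it did not pass in either genotype (adjusted p = 0.14 and 0.0534). The S and M phase genes Ccna2, Ccnb2 and Cdk1, which encodes the kinase that starts mitosis, had differences from -0.17 to 0.06. All 3 had 95% intervals within -0.39 and 0.33.

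Of the 8 genes of mitosis and cytokinesis, 0 passed in control mice (22.1% of all genes did) and 1 rose in Astro-D2KO mice (7.49% of all genes did). Mki67, the gene of the proliferation antigen Ki-67, stood at 5.04 ± 0.155 under saline and 5.23 ± 0.091 after SE in control mice, and at 5.08 ± 0.14 and 5.18 ± 0.0986 in Astro-D2KO mice (SD, n = 4). Its groups overlapped. Top2a, the topoisomerase that untangles replicated chromosomes, differed by 0.01 in control mice and by 0.29 in Astro-D2KO mice (adjusted p = 0.0662), where its arrays did not overlap. Cdca8, which encodes borealin of the chromosomal passenger complex, stood at 4.41, 4.47, 4.60 and 4.49 in Astro-D2KO saline arrays and at 4.96, 4.71, 4.67 and 4.67 in Astro-D2KO SE arrays. It rose by 0.26 ± 0.080 (adjusted p = 0.0287) there and differed by 0.05 in control mice. The rise rested on Astro-D2KO SE replicate 1, without which it was 0.19 (adjusted p = 0.105), and it did not pass without Astro-D2KO saline replicate 1 (0.23), 2 (0.25) or 4 (0.26). Aurkb and Birc5, partners of borealin in that complex, had differences from -0.15 to 0.13, and Bub1, Plk1 and Ube2c, of the spindle checkpoint, the mitotic kinases and the anaphase machinery, from -0.16 to 0.15. Uhrf1, which keeps DNA methylation through replication, had -0.08 and 0.14.

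For the members that did not pass, the data bound the change. In control mice 24 of the 26 had a 95% interval within 0.5 of 0 on the log2 scale, and all 26 within 1. In Astro-D2KO mice 22 of 25 lay within 0.5 and all 25 within 1. A 2-fold change of the mean thus lay outside the interval of each of them. Arrays did not overlap for 2 members that were higher and 4 that were lower after SE in control mice (background 8.46% and 13.7% of all genes), and for 5 higher and 2 lower in Astro-D2KO mice (9.54% and 15.1%). RMA values compress the changes of dim probe sets, and no detection call comes with the values, so whether each of these transcripts was above background is not known.

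No member passed the test between the genotypes. Under saline limma called 0 of the 32 members (0 at an unadjusted p under 0.05, beside 3.99% of all genes) and 0% of all genes, with differences from -0.16 to 0.19. This count includes Pcna and Cip2a, whose spread in that fit takes in their SE arrays and so made a call of them less likely. Arrays did not overlap for 0 members higher and 1 lower, Top2a (-0.11), beside 1.27% and 1.34% of all genes. After SE it called 0 of 30 (2 at an unadjusted p under 0.05, Rrm1 and Mcm6, beside 6.12% of all genes) and 0% of all genes. Arrays did not overlap for 0 members in either direction, beside 1.53% of all genes higher and 1.40% lower. For the interaction, which sets the SE response of Astro-D2KO mice against the control one, it called 0 of 30 (1 at an unadjusted p under 0.05, beside 4.65% of all genes) and 0% of all genes. Rrm1 was 0.44 lower in Astro-D2KO than in control mice after SE (difference -0.44, 95% interval -0.78 to -0.09, adjusted p = 0.725). Without control SE replicate 4 and Astro-D2KO SE replicate 1 the difference was -0.69. Those 2 arrays, chosen after the data were seen, were the lowest control and the highest Astro-D2KO SE array for Rrm1. Leaving them out had to widen the difference, so no p-value is given for it. Mcm6 differed by 0.25 (0.04 to 0.46, adjusted p = 0.736), and Chek1 by -0.11 (-0.44 to 0.23). Without the same 2 arrays Mcm6 differed by 0.35 and Chek1 by -0.03.

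Pcna and Cip2a, given without a test, were -0.57 and -0.87 in Astro-D2KO relative to control mice after SE. For both genes the 2 arrays were the lowest control and the highest Astro-D2KO SE array, so leaving them out had to widen the differences. Without them the differences were -1.03 and -1.47. The means were then 10.22 ± 0.216 in control and 9.19 ± 0.15 in Astro-D2KO mice for Pcna, and 7.34 ± 0.56 and 5.87 ± 0.0238 for Cip2a (SD, n = 3 each). Under saline Pcna differed by -0.08 and Cip2a by -0.02 between the genotypes. In limma's fit over all 16 arrays the spread of each gene includes its SE arrays, so the test for these genes was taken from the fit on the saline arrays alone, where neither passed (adjusted p = 0.984 for Pcna and 0.996 for Cip2a).

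Other genes of the same machinery come from lists written by function, also with earlier results of these data known. They are set beside the background of 8.42% higher and 13.7% lower in control mice and 7.49% higher and 12.6% lower in Astro-D2KO mice. Of the 16 origin recognition and pre-initiation genes, 1 rose and 6 fell in control mice and 0 rose and 6 fell in Astro-D2KO mice. Those that fell include Orc3 (-0.58 and -0.49) and Orc5 (-0.48 and -0.42) of the origin recognition complex, and Gins4 (-0.49 and -0.51) of the GINS complex. Topbp1, which helps fire origins and turns on the ATR kinase, fell too (-0.41 and -0.44). Dbf4, the activator of the Cdc7 kinase, rose by 0.44 in control mice and differed by 0.24 in Astro-D2KO mice. Of the 27 polymerase and fork genes, 2 rose and 4 fell in control and 2 rose and 6 fell in Astro-D2KO mice. The fork protection gene Tipin fell in both (-0.61 and -0.38), in Astro-D2KO mice close to the threshold (adjusted p = 0.0488). The clamp loader gene Rfc2 fell by 0.44 in both genotypes, as did the primase partner gene Pola2 (-0.35 and -0.40). Chaf1b, of the factor that puts histones on new DNA, rose (0.44 and 0.48), as did the histone messenger binding gene Slbp in Astro-D2KO mice (0.48, and 0.35 without passing in control mice).

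Of the 18 genes of E2F, retinoblastoma and the DREAM complex, which set the timing of cell cycle transcription, 2 rose and 4 fell in each genotype. Tfdp2, the dimer partner of E2F, fell (-0.51 and -0.59), as did Rbl2, a pocket protein that represses E2F targets (-0.37 and -0.40). The DREAM subunit gene Lin9 fell in both (-0.35 and -0.41). Lin52 fell (-0.36) and Lin54 rose (0.43) in control mice, with -0.30 and 0.22 in Astro-D2KO mice, where E2f6 fell (-0.41, and -0.16 in control mice). Of the 21 measured CDK inhibitors, kinases and phosphatases, 5 rose and 3 fell in control mice and 2 rose and 3 fell in Astro-D2KO mice. The largest was Cdkn1a, the gene of the CDK inhibitor p21, which rose by 2.09 ± 0.332 and 1.91 ± 0.332 (adjusted p = 0.000222 and 0.000565). Cdk6 (0.82) and Cdkn3 (0.51) rose in control mice and differed by 0.50 and 0.32 in Astro-D2KO mice. Cdc25b, a phosphatase that frees Cdk1, fell in both (-0.59 and -0.51), as did Wee1, the kinase that blocks Cdk1 (-0.49 and -0.80), and Ccnh (-0.43 and -0.45). The control call of Wee1 was close to the threshold (adjusted p = 0.0433).

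Of the 41 measured kinetochore and spindle genes, 7 rose and 4 fell in control mice and 4 rose and 4 fell in Astro-D2KO mice. Cenpa, the centromere histone, rose by 1.17 ± 0.197 and 0.85 ± 0.197 (adjusted p = 0.000366 and 0.00492). Its control SE arrays stood at 6.97, 6.76, 7.21 and 6.07, with replicate 4 lowest, and its Astro-D2KO SE arrays at 6.73, 6.18, 5.97 and 6.44, with replicate 1 highest. Without those 2 arrays Cenpa rose by 1.40 and 0.72. The chromosome motor gene Kif4 (0.61 and 0.66) and the checkpoint gene Bub1b (0.57 and 0.61) rose in both genotypes, and Cks2, of a CDK-binding protein, rose in control mice (0.76, and 0.54 without passing in Astro-D2KO mice). The control rise of Cks2 was 1.41 with the mean of its probe sets and 1.62 with its probe set of largest interquartile range. The condensin gene Ncapd2 fell in both (-0.47 and -0.71).

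Of the 16 measured genes of DNA damage signalling, 3 rose and 2 fell in each genotype. Gadd45g (3.02 and 3.41) and Gadd45b (2.80 and 2.30), growth arrest genes that neuronal activity also induces, had the largest rises of all these lists. Mdm2, the ligase that limits p53, rose too (0.50 and 0.45). The apex kinase genes fell, Atm (-0.61 and -0.73) and Atr, whose kinase activates Chk1 (-0.43 and -0.69). Of the 11 genes of PP2A and its partners, 4 rose in each genotype and 1 fell in Astro-D2KO mice. Myc, whose protein CIP2A shields, rose by 1.07 and 1.09, and the PP2A subunit genes Ppp2r2a (0.60 and 0.37) and Ppp2ca (0.38 and 0.41) and the phosphatase gene Cdc14b (0.69 and 0.83) rose, while Anp32a, of a PP2A inhibitor, fell in Astro-D2KO mice (-0.41, and -0.22 in control mice). Of the calls of these genes that were recomputed under the alternatives, those of Dbf4, Chaf1b, Pola2, Rbl2, Lin52 and Ppp2ca in control mice and of Slbp, Pola2, E2f6, Rbl2 and Anp32a in Astro-D2KO mice were lost under 1 or more alternatives, mostly on leaving out an array. Some calls, among them those of Tipin in Astro-D2KO and Wee1 in control mice, were not recomputed.

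**Figure D4:**
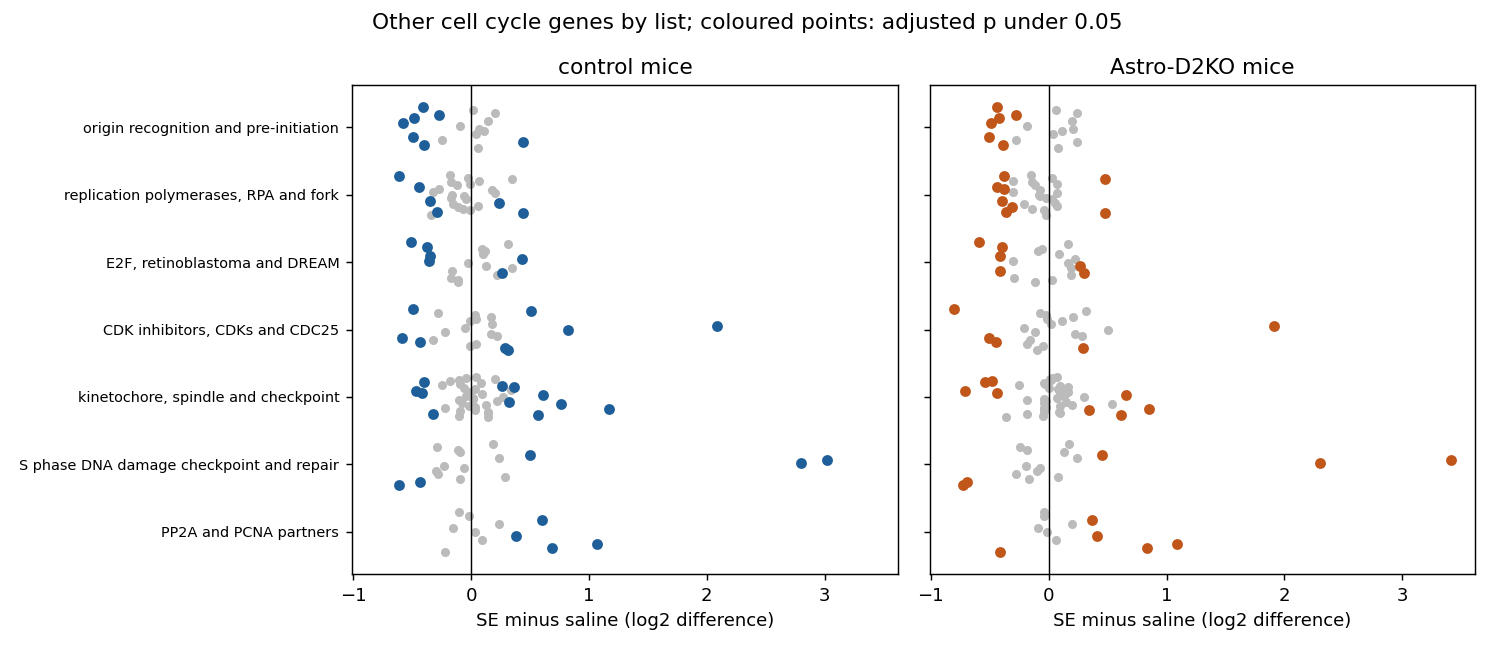
SE minus saline difference on the log2 scale for each measured gene of 7 lists of other cell cycle genes, in control mice on the left and Astro-D2KO mice on the right, with genes of adjusted p under 0.05 in colour. Most points lie within 1 of 0; Gadd45g, Gadd45b and Cdkn1a lie beyond 1.5.

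Markers of the cells that divide in adult hippocampus, and then of other cells of the tissue, are given as lists. The background for each list is 8.42% of all genes higher and 13.7% lower in control mice, and 7.49% higher and 12.6% lower in Astro-D2KO mice. Of 15 neural stem cell and neuroblast markers, 3 rose and 0 fell in control mice and 2 rose and 3 fell in Astro-D2KO mice. The interaction called 0 of these 15, so the counts do not show a difference between the genotypes. Sox4 (0.79 and 0.95) and Sox11 (0.83 and 0.61), transcription factors of young neurons, rose in both, though Sox4 by 0.59 in Astro-D2KO mice with the mean of its probe sets, and Sox2, of stem cells and astrocytes, fell in Astro-D2KO mice (-0.76, and -0.10 in control mice), where Calb2 fell too (-0.98, and 0.07 in control mice). Dcx, the doublecortin gene of migrating neuroblasts, named after its value was seen, fell there as well (-0.38, and -0.22 in control mice). The mean of this list ran from 5.99 to 6.16 in control saline, 6.18 to 6.37 in control SE, 6.06 to 6.11 in Astro-D2KO saline and 6.06 to 6.25 in Astro-D2KO SE arrays. Of 9 oligodendrocyte precursor markers, 0 rose and 2 fell in control mice, Gpr17 (-0.60) and Cspg4 (-0.31), and 0 rose and 1 fell in Astro-D2KO mice, Gpr17 (-0.60). The calls of Gpr17, Cspg4 and Calb2 were each lost on leaving out any of several arrays. Of 11 microglia markers, 3 fell in control and 4 in Astro-D2KO mice, P2ry12 (-1.02 and -1.14) and Selplg (-0.83 and -0.98, or -0.46 and -0.57 with the mean of its probe sets) the most, and the mean of the list ran from 7.47 to 7.68 in saline and 7.10 to 7.45 in SE arrays of control mice. Of 12 endothelial markers, 4 rose and 2 fell in each genotype, and of 11 blood and leukocyte markers 2 rose in control and 0 in Astro-D2KO mice. Of 11 astrocyte markers 1 rose and 2 fell in control and 1 rose and 1 fell in Astro-D2KO mice. Of 8 oligodendrocyte markers 0 were called in control and 2 fell in Astro-D2KO mice, Mag and Mbp. The interaction called 0 of the leukocyte and 0 of the oligodendrocyte markers, so these counts do not show a difference between the genotypes either. The calls of Mag and Mbp, and those of the leukocyte markers S100a9 and Ptprc in control mice, were each lost under some alternatives. Of 10 general neuron markers 2 rose and 2 fell in control and 3 rose and 1 fell in Astro-D2KO mice, and of 10 pyramidal cell markers 1 rose and 1 fell, and 1 rose and 0 fell. The part of these cells in the member differences was not tested.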

How the data were processed

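Affymetrix array values of 16 mice were used, 4 per group, with groups taken from the titles. Per the submitters' processing notes the authors made the deposited values with RMA, which corrects background, normalises arrays by quantiles and summarises probe sets. The deposited values were read as log2, which the table does not state, from their range of 1.70 to 13.79 and array medians of 5.77 to 5.82. Quantile normalisation would hide a change shared by all genes. The number of arrays sets the precision, as arrays give no read depth.

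Of 41345 probe sets, 23521 had 1 gene symbol in the platform annotation, 1814 several and 16010 none. The highest-mean probe set stood for a gene. Each group got its own mean in limma 3.58.1 (R 4.3.3), with 5 contrasts. Members called in any contrast, members with non-overlapping arrays that differed by 0.5 or more, and Pcna and Cip2a are given array by array, and from each other list the called genes, up to 4 per contrast. The members and lists were chosen with earlier results of these data known. The fit was tested on simulated data. Alternatives were the probe set, scaling, level filter, prior, array weights, arrays in the fit, a replicate block and each array left out. Leaving out the 2 arrays of unusual Dio2 level together was chosen after seeing the data. Nothing says that mice were littermates, and p-values measure the spread between mice.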

Additional observations from a re-analysis of the deposited data

Results flagged for a closer look

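In groups of 4 arrays, leaving out the SE arrays of Pcna and Cip2a, 6 of 128 gene and group combinations had an array far from the others by Dixon's ratio (above 0.829), where chance flags about 1 in 20. In Astro-D2KO SE mice, replicate 1 was far above the others for Dio2 (8.91, next 7.17) and Cdca8 (4.96, next 4.71), and replicate 2 for Cdc6 (5.08, next 4.89). In control mice under saline, replicate 4 was far below the others for Mcm4 (6.24, next 6.49) and Mcm6 (6.33, next 6.53). In control SE mice, replicate 1 was far above the others for Uhrf1 (5.90, next 5.54).

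Gins2 differed by -0.16 after SE in control mice and by 0.09 in Astro-D2KO mice, an interaction of 0.25. Every control SE array lay below the control saline mean and every Astro-D2KO SE array above its own saline mean. Limma's test of that difference across all genes did not pass (adjusted p = 0.998).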

How the results depend on the processing

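With the genes above the median level only, which kept 6 of the 32 members, 2 of 5 tested members were called in control (beside 43.4% of all genes) and 2 of 5 in Astro-D2KO mice (beside 39.4%), from fewer genes. Under every other setting, arrays left out included, the count of tested members called ran from 4 to 6 of 30 for control (beside 17.1% to 23.1% of all genes) and from 4 to 7 for Astro-D2KO mice (beside 15.7% to 23.6%), and it was 0 for both genotype comparisons and the interaction. With the replicate block, 4 members were called for control and 5 for Astro-D2KO mice, and no member call changed. Same-numbered arrays correlated from -0.29 to 0.34 in their deviations from the group means, with 4 of 24 pairs over 0.1. These values do not show that the numbers pair the mice, and they cannot exclude it. The calls of Rrm1, Chek1 and Mcm7 in both genotypes, and of Mcm6 in control mice, held under every alternative that measured them. The saline difference of Cip2a between genotypes, from -0.13 to 0.10 over left-out arrays, turned positive without control saline replicate 1 (0.01) or 2 (0.10) or Astro-D2KO saline replicate 3 (0.02). The other Dio2 probe set gave -0.09 under saline, where the call was lost (exact permutation p = 0.686). Of 109 calls of other named genes, 80 held under every alternative, 29 were lost under some and 0 reversed. The cause of these changes was not tested.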
